A study of Mus musculus with 8 samples.

Results

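The 10 genes described here, Ly6c2, Plac8, Chil3, Flt3, Lyz1, Lyz2, Mpeg1, Cd68, Msr1 and Folr2, are transcripts of monocytes, dendritic cells and macrophages, and all 10 were found among the 22180 genes that the array annotation names alone in a row. Each was named alone in 1 row of the value table, so the rule of taking the brightest row of a gene left no choice. Liver RNA of C57BL/6 mice was hybridised to Affymetrix Mouse Gene 2.0 ST arrays, whose probes lie along each transcript. The 8 arrays comprised 4 labelled wild-type and 4 labelled IL-10 knockout, a line that lacks the anti-inflammatory cytokine interleukin-10, and the labels do not say which allele was used. Mice of either group are labelled female and 6 weeks old, and all drank 3% dextran sulfate sodium (DSS), an agent that damages the epithelium of the colon and so brings on colitis, for 7 days. No mice without DSS were among the samples, so every difference below is between genotypes under colitis.

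Monocytes leave the bone marrow and enter inflamed tissue, where they can become macrophages or cells that resemble dendritic cells. In mice the cells that are recruited carry Ly6C on their surface, while the liver also holds a large resident macrophage population, the Kupffer cells, that is kept up largely without them. Dendritic cells arise from precursors that depend on the receptor FLT3. Lysozyme, scavenger receptor and lysosomal genes are shared by recruited and resident phagocytes, and several of the 10 genes are also transcribed in neutrophils.

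Values are log2 levels after robust multi-array averaging (RMA), a difference is the mean of the arrays labelled knockout minus the mean of the wild-type arrays, and errors are SD over n = 4 arrays unless SE is stated. A gene was called when its limma p, adjusted over all 22180 genes by the Benjamini-Hochberg method, was below 0.05. The labels do not tie arrays to numbered animals, so these p-values measure the spread between the samples. Il10 itself read 4.95, 5.08, 4.90 and 4.95 in the wild-type arrays and 5.79, 5.69, 6.00 and 6.41 in the arrays labelled knockout. It was therefore not lower in the latter (difference 1.00, SE 0.14; limma adjusted p = 0.00851), and the sources used here do not place the mutation relative to its probes, so directions rest on the labels alone. Although all mice are labelled female, replicates 1 and 2 of each group had Y-linked signal (mean of Kdm5d, Uty and Eif2s3y between 8.20 and 8.52, against 4.30 to 4.48 in the other arrays). Xist was between 11.68 and 11.82 in replicates 3 and 4 of each group and between 5.62 and 6.32 in the rest. Each group thus held 2 arrays of either kind, and differences are also given within each kind. Hepatocyte markers had mean levels between 12.53 and 12.74 in all arrays.

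Of the 10 genes, 5 rose in the arrays labelled knockout (Ly6c2, Plac8, Chil3, Flt3 and Msr1), none fell, and 5 did not pass the test (Lyz1, Lyz2, Mpeg1, Cd68 and Folr2). Among all genes 1.56% were called higher, 1.59% lower and 3.15% in either direction, 347 higher and 352 lower; after arrays were brought to a common median this split was 209 higher and 330 lower. The same 5 genes had groups that did not overlap, which 7.2% of all genes showed in that direction, 5.74% in the other and 12.9% in all. The median difference of the 10 was 0.42, against 0.03 over all genes. The genes were listed with earlier results of these data known, so these counts describe them and are not a test of the list. In RNA of whole liver, more cells of a type and more RNA per cell cannot be told apart.

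**Figure D1:**
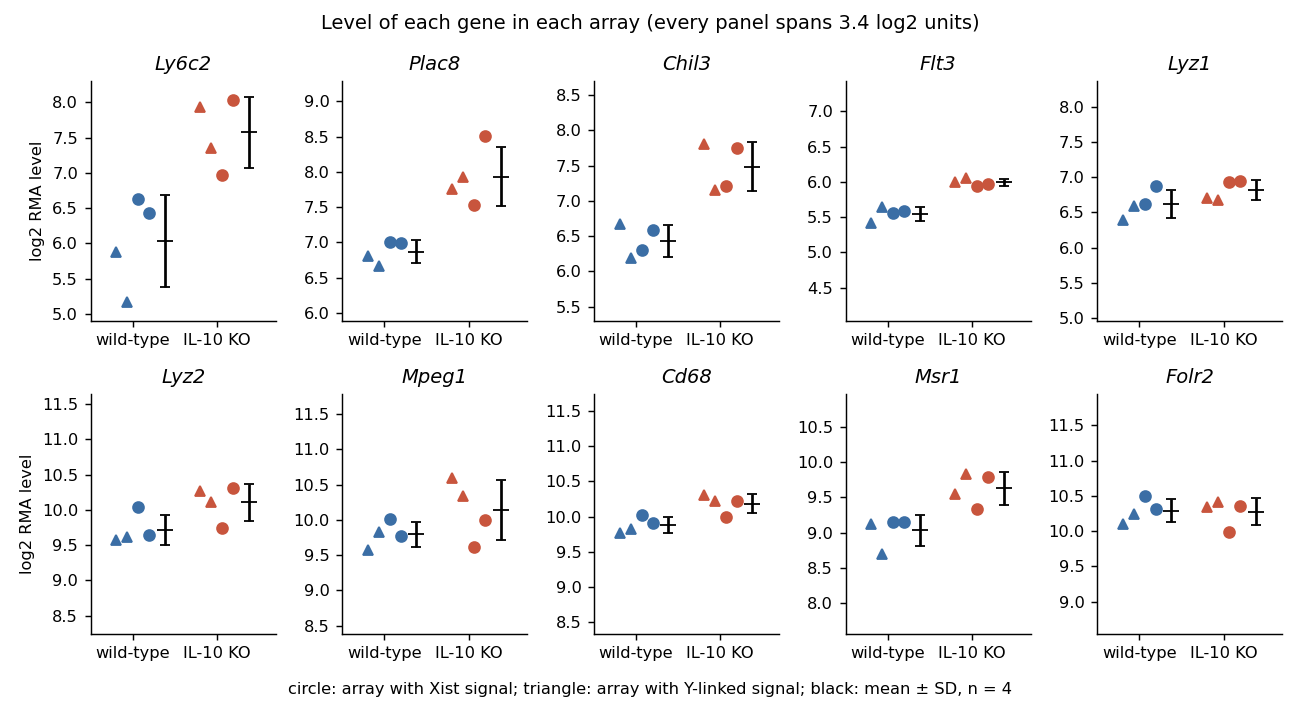
Level of each gene in each array (vertical axis, log2 RMA level, every panel spanning the same number of log2 units), with wild-type arrays in blue, arrays labelled IL-10 knockout in red, circles for arrays with Xist signal, triangles for arrays with Y-linked signal, and black marks for mean ± SD (n = 4). Ly6c2, Plac8, Chil3, Flt3 and Msr1 show groups apart, and the other 5 genes show overlap.

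The 2 transcripts most tied to circulating inflammatory monocytes, Ly6c2 and Plac8, were higher in every array labelled knockout than in any wild-type array. Ly6c2 encodes the main Ly6C antigen, the surface protein by which inflammatory monocytes are sorted. It read 5.88, 5.17, 6.63 and 6.43 in the wild-type arrays, given here and below by replicate number, and 7.94, 7.35, 6.97 and 8.04 in the arrays labelled knockout. Arrays of either group were widely spread, and the closest approach was between replicate 3 of each group, 0.33 apart. Means were 6.03 ± 0.65 and 7.57 ± 0.51, a difference of 1.54 (SE 0.32; 2.92-fold; limma adjusted p = 0.0362), which ranked 27 among the signed differences of all genes. The call was lost when replicate 1, 2 or 4 of either group was left out (adjusted p between 0.0523 and 0.106) and with the trend and robust settings of eBayes (0.0694), while the difference stayed between 1.26 and 1.75 in the 8 fits without 1 array. No detection call comes with the values, and the wild-type mean lay near the array medians of 6.09 to 6.22, so this fold is uncertain.

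Ly6c2 has a close relative, Ly6c1, an antigen of endothelial cells that lies near it in the genome, and probes of such relatives may read either transcript. Ly6c1 had a mean of 3.76 ± 0.30 in wild-type and 3.74 ± 0.07 in knockout-labelled arrays (difference -0.02, SE 0.13; limma adjusted p = 0.948). Its wild-type mean lay at percentile 5.37 of all genes, far below the array medians, and may be background, so its reading does not show whether that transcript moved with Ly6c2. The stretches of 250 bases before the first listed start of each gene (RefSeq, GRCm38.p6, minus strand, chr15:75111972-75112221 for Ly6c2 and chr15:75048838-75049087 for Ly6c1) are shown to compare the pair, with capitals for matches to GAGGAA, the core letters that the myeloid factor PU.1 prefers, on either strand, or to TTNNGCAA, letters of a C/EBP site. They aligned with 57.7% identical columns, against 43.5% for the unrelated pair Plac8 and Flt3.
Ly6c2: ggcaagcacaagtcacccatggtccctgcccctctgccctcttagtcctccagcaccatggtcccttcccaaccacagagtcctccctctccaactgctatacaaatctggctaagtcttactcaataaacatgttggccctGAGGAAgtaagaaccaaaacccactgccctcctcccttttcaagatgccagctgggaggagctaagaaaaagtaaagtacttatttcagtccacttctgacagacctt
Ly6c1: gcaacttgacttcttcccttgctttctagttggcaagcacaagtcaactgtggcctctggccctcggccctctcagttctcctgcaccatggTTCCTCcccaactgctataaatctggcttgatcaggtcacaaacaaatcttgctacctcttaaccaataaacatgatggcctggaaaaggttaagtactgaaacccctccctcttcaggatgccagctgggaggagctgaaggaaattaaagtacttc
Ly6c2 held GAGGAA on the gene's strand at bases -108 to -103, and Ly6c1 held it on the opposite strand at -158 to -153. GAGGAA occurred in 23.3% and TTNNGCAA in 9.57% of the 32841 such windows in the RefSeq table.

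Plac8 encodes a small cysteine-rich protein of monocytes, plasmacytoid dendritic cells and granulocytes. It read 6.81, 6.66, 7.01 and 7.00 in the wild-type arrays and 7.76, 7.92, 7.53 and 8.51 in those labelled knockout. The wild-type arrays lay close together, and knockout-labelled replicate 4 was the highest of all. Means were 6.87 ± 0.17 and 7.93 ± 0.42, a difference of 1.06 (SE 0.18; 2.09-fold; limma adjusted p = 0.0189), lost without wild-type replicate 1 (adjusted p = 0.0614) or 2 (0.0615). The 250 bases before the first of its 2 listed starts (RefSeq, GRCm38.p6, minus strand, chr5:100572206-100572455), marked in the same way, are shown because it was the only one of the 9 genes in the table with GAGGAA at more than 1 place, -146 to -141 and, on the opposite strand, -15 to -10.
Plac8: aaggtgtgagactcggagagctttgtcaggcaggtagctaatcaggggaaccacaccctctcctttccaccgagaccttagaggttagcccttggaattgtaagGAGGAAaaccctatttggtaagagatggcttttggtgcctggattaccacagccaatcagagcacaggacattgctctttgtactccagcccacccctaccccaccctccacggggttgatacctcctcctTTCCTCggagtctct
In all, 3 of these 9 genes (Ly6c2, Plac8 and Cd68) held GAGGAA, which 23.3% of all windows did. TTNNGCAA was held by 2 (Lyz1 and Cd68), and by 9.57% of all windows. None of the matches overlapped another, and they are matches of letters, not measured sites. Spi1, which encodes PU.1, rose by 0.66 (SE 0.09; limma adjusted p = 0.00704), and its part in the differences of these genes was not tested.

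Chil3, the chitinase-like protein Ym1 of monocytes, neutrophils and alternatively activated macrophages, rose by about as much as Plac8. It read 6.67, 6.19, 6.31 and 6.58 in the wild-type arrays and 7.81, 7.16, 7.21 and 7.75 in the arrays labelled knockout. The groups were 0.49 apart at their closest. Means were 6.44 ± 0.23 and 7.48 ± 0.34 (difference 1.05, SE 0.17; 2.07-fold; limma adjusted p = 0.0143), and the adjusted p was 0.0502 without wild-type replicate 3. Its relative Chil4 (Ym2), better known from airway inflammation, averaged 4.93 ± 0.06 and 4.87 ± 0.23 (difference -0.06, SE 0.11; adjusted p = 0.795). The wild-type mean of Chil4 lay at percentile 18.9 of all genes and may be background, so whether it moved with Chil3 cannot be read from this row. Chil1, another chitinase-like gene, rose by 2.99 (SE 0.36; adjusted p = 0.00614), but lies on the chromosome of Il10, which none of the 10 genes does. The 250 bases before Chil3 (RefSeq, GRCm38.p6, minus strand, chr3:106167565-106167814) and Chil4 (chr3:106219480-106219729) are shown to compare these neighbours, in which 72% of aligned columns were identical.
Chil3: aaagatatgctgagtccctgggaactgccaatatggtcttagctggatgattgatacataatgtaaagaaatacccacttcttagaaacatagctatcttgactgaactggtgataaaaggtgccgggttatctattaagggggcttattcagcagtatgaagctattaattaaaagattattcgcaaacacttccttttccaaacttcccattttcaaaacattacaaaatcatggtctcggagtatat
Chil4: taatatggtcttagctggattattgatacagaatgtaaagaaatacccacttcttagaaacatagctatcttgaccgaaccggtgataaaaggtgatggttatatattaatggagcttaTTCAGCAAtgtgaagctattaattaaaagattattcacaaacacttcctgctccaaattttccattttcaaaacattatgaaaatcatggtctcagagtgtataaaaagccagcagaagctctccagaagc
The only marked match, TTNNGCAA at -131 to -124, was before Chil4. The windows begin at annotated starts, which may not be at matching bases in the pair.

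Flt3, the receptor tyrosine kinase that FLT3 ligand engages on progenitors and dendritic cells, showed a small difference with little spread. It read 5.41, 5.65, 5.55 and 5.58 in the wild-type arrays and 6.00, 6.05, 5.95 and 5.97 in those labelled knockout. The 4 knockout-labelled values were the tightest of any of the 10 genes, with an SD of 0.05. Means were 5.55 ± 0.10 and 5.99 ± 0.05 (difference 0.44, SE 0.07; 1.36-fold; limma adjusted p = 0.0143), and this was the only one of the 5 calls that held in all 8 fits without 1 array (adjusted p between 0.0209 and 0.0466). All values were below the array medians of 6.09 to 6.22, and Flt3 was the 1 gene of the 10 left out when the lowest 40% of genes were removed, so its fold on this scale is uncertain.

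Other genes of FLT3 and colony-stimulating factor signalling and of dendritic cells did not all move with Flt3. Of 17 measured signalling genes 5 rose, 1 fell and 11 did not pass (median difference 0.21). Pik3cd, a kinase subunit of leukocytes, rose by 0.69 (limma adjusted p = 0.00682), the shared GM-CSF receptor subunit Csf2rb by 0.54 (0.0320) and the G-CSF receptor Csf3r, also a neutrophil marker, by 0.43 (0.0207). Stat5b, which in liver carries growth hormone signals, fell by 0.62 (0.00851). Of 24 measured dendritic cell genes none rose, 1 fell and 23 did not pass (median difference 0.04; 9 at an unadjusted p under 0.05). The gene that fell was Dpp4 (-0.50; adjusted p = 0.0320), a surface peptidase that hepatocytes also make. The antigen presentation regulator Ciita (0.30; adjusted p = 0.0551), the myeloid inhibitory receptor Sirpa (0.38; 0.0843) and Batf3, a factor of cross-presenting dendritic cells (0.31; 0.0860), did not pass. Cd24a (-0.62; 0.103) and Bst2 (-0.55; 0.155) of the same list were lower and did not pass either.

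The lysozyme genes, which encode the bacterial cell wall enzyme of phagocytes (Lyz2) and of Paneth cells in the gut (Lyz1), did not pass. Lyz2 read 9.57, 9.61, 10.03 and 9.65 in the wild-type arrays and 10.27, 10.11, 9.74 and 10.31 in the arrays labelled knockout. Only knockout-labelled replicate 3 fell within the wild-type range, and wild-type replicate 3 stood above the other arrays of its group. The means were 9.72 ± 0.21 and 10.11 ± 0.26, a difference of 0.39 (95% interval 0.07 to 0.71; limma adjusted p = 0.155). Lyz1 read 6.39, 6.59, 6.62 and 6.87 against 6.70, 6.67, 6.93 and 6.94, with 2 knockout-labelled arrays above all wild-type ones. Its difference was 0.19 (95% interval -0.05 to 0.44; adjusted p = 0.339), and 0.12 without wild-type replicate 1. The shift in Lyz2 minus Lyz1 was 0.20 (two-sided exact permutation p = 0.4 over 70 arrangements, and 0.4 adjusted over the 3 pairs of relatives compared), so unequal change of the pair was not detectable with 4 arrays a group. Their transcripts are alike enough that probes may read either, and how far they do was not tested. The same exact permutation test gave p = 0.0286 for Ly6c2 minus Ly6c1 and for Chil3 minus Chil4 (0.0429 adjusted), the smallest p possible here. These results are not read as unequal change, since the rows of Ly6c1 and Chil4 may be background. Of 11 Paneth cell and gut genes none was called by limma (3 at an unadjusted p under 0.05; median difference 0.09).
The 250 bases before Lyz2 (RefSeq, GRCm38.p6, minus strand, chr10:117282273-117282522) and Lyz1 (chr10:117292869-117293118) had the highest identity of the 3 pairs of relatives, with 79.4% identical columns, and are shown for that likeness.
Lyz2: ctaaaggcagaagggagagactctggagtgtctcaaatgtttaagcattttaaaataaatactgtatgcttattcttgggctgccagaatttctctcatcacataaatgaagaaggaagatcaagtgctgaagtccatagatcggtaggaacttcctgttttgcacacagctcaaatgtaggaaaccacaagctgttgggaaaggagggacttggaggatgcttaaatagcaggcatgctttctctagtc
Lyz1: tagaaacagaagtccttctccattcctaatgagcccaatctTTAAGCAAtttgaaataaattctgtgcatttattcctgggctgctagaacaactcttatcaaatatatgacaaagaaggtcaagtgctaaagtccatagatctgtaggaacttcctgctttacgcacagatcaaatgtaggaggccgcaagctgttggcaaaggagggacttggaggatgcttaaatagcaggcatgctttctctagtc
TTNNGCAA was found at -209 to -202 of Lyz1 and not in the window of Lyz2.

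Among the scavenger and lysosomal genes of macrophages, Msr1 rose and Cd68, Mpeg1 and Folr2 did not pass. Msr1, the class A scavenger receptor that takes up modified lipoproteins and bacteria, read 9.12, 8.70, 9.16 and 9.16 in the wild-type arrays and 9.55, 9.83, 9.34 and 9.79 in those labelled knockout. The groups were only 0.18 apart, and wild-type replicate 2 lay below the other 3 arrays of its group. Means were 9.03 ± 0.22 and 9.63 ± 0.23 (difference 0.59, SE 0.14; 1.51-fold; limma adjusted p = 0.0477). The call held in only 1 of the 8 fits without 1 array, that without knockout-labelled replicate 3. It was lost in the other 7 (adjusted p between 0.0535 and 0.132) and with a common median per array (0.0801).

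Cd68, a lysosomal glycoprotein used to stain macrophages, read 9.77, 9.83, 10.03 and 9.91 in the wild-type arrays and 10.31, 10.22, 9.99 and 10.22 in the arrays labelled knockout. Only knockout-labelled replicate 3 lay within the wild-type range, below wild-type replicate 3. The difference was 0.30 (95% interval 0.10 to 0.50; limma adjusted p = 0.0955), and it passed with array weights (0.0486), cyclic loess (0.0427) and quantile normalization (0.0347). It did not pass with a common median per array (0.199) or in any of the 8 fits without 1 array (limma adjusted p between 0.0504 and 0.223). Mpeg1, which encodes the pore-forming protein perforin-2 of macrophages, read 9.58, 9.83, 10.01 and 9.77 against 10.59, 10.34, 9.62 and 10.01. Its knockout-labelled values had an SD of 0.42, against 0.18 in wild-type arrays, and 2 of the 4 were above all wild-type ones (difference 0.34; 95% interval -0.07 to 0.76; adjusted p = 0.319). That difference was 0.19 without knockout-labelled replicate 1 and 0.52 without replicate 3 of the same group. Folr2, the folate receptor beta of resident macrophages, read 10.11, 10.24, 10.50 and 10.31 against 10.34, 10.41, 9.99 and 10.36. No knockout-labelled array exceeded the highest wild-type one, and the difference was -0.01 (95% interval -0.27 to 0.24; adjusted p = 0.955), with the sign turned by array weights (0.05), cyclic loess (0.03) and quantile normalization (0.03).

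**Figure D2:**
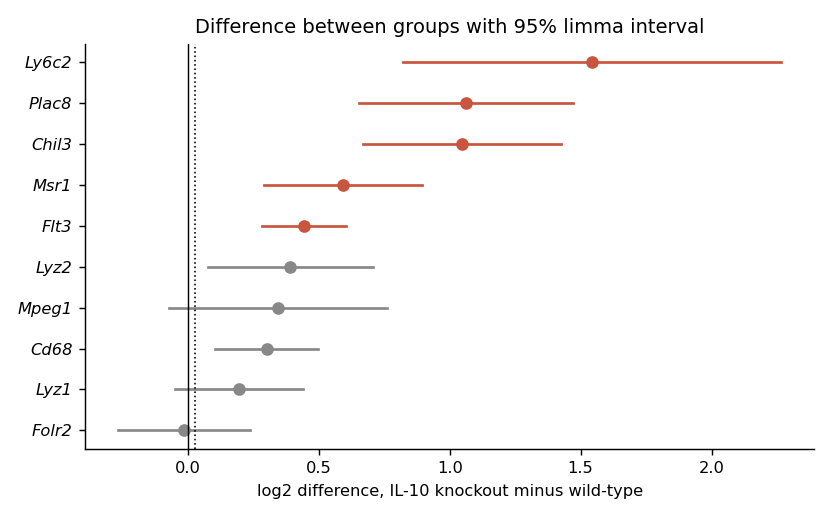
Difference of each gene between groups (horizontal axis, log2, knockout-labelled minus wild-type) with its 95% limma interval, red for adjusted p below 0.05 and grey for the rest; the dotted line is the median of all genes, 0.03. Differences run from -0.01 for Folr2 to 1.54 for Ly6c2.

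Of 26 measured scavenger receptor and lysosomal genes 5 rose, none fell and 21 did not pass, with a median difference of 0.02. Those that rose included the lysosomal proteases Ctss (0.69; limma adjusted p = 0.0134) and Lgmn (0.42; 0.0249), the hemoglobin scavenger receptor Cd163 (1.01; 0.0148) and the leukocyte lysosomal protein Laptm5 (0.45; 0.0173). Of 16 relatives of Ly6, lysozyme and folate receptor genes only Ly6g, the antigen of neutrophils, rose (0.88; 0.0251), and 15 did not pass (median 0.09). The folate receptor alpha gene Folr1 had a difference of 0.16 (0.544), the folate carriers Slc19a1 0.40 (0.124) and Slc46a1 -0.38 (0.145), and the egg receptor gene Izumo1r, of the folate receptor family, 0.19 (0.196). Of 13 chitinase-like and alternative activation genes Chil1, the neutrophil resistin Retnlg (1.26; 0.0184) and the interleukin-4 receptor Il4ra (0.39; 0.0279) rose and 10 did not pass (median 0.08). Arg1, an arginase of alternatively activated macrophages that hepatocytes make for the urea cycle, had 0.36 (0.0657).

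Some monocyte genes outside the 10 rose as well. Of 33 measured genes of monocyte recruitment and identity 9 rose, none fell and 24 did not pass (median difference 0.36; 20 at an unadjusted p under 0.05). Fcgr4, an Fc receptor of monocytes and neutrophils, rose by 1.37 (limma adjusted p = 0.00605), the membrane protein Ms4a8a by 2.09 (0.00614) and the galectin Lgals3 by 0.69 (0.00868). Ccr2, the chemokine receptor that lets Ly6C monocytes leave the marrow, read 5.53, 5.56, 5.60 and 5.65 in the wild-type arrays and 6.90, 5.93, 5.50 and 6.24 in the others. Knockout-labelled replicate 3 was below all wild-type arrays and the other 3 were above them, and Ccr2 did not pass (difference 0.55, SE 0.24; adjusted p = 0.214).

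Across the 10 genes, knockout-labelled replicate 3 was the lowest array of its group for 8, and wild-type replicate 3 the highest of its group for 7. The exceptions in the knockout-labelled group were Chil3 and Lyz1, where replicate 2 was lowest. Knockout-labelled replicate 3 also had the lowest limma array weight, 0.447, against 0.965 to 1.25 for the other arrays. The mean level of the 10 genes over the wild-type mean was 0.71, 0.58, 0.30 and 0.77 in knockout-labelled replicates 1 to 4 and between -0.17 and 0.16 in the wild-type arrays. These arrays carried other differences between groups too. Of 21 neutrophil markers 13 rose and 1 fell (median difference 0.82), and their mean level ranged from 6.33 to 6.66 in wild-type and from 7.07 to 7.64 in knockout-labelled arrays. Over the wild-type mean it was 0.66, 0.58, 1.14 and 1.03 in knockout-labelled replicates 1 to 4. The 2 highest values were in replicate 3, where the mean of the 10 genes was lowest (0.30), and in replicate 4, where it was highest (0.77). Of 18 Kupffer cell markers 6 were called higher, none was called lower and 12 did not pass (median 0.53). Those called included C1qb (0.64; limma adjusted p = 0.00587) and C1qc (0.51; 0.0253). Timd4 (0.65; 0.0767) and Clec4f (0.38; 0.0769) were higher and Fcna (-0.28; 0.0934) lower, and these did not pass. The mean level of all 18 ranged from 8.71 to 8.97 in wild-type and from 9.13 to 9.41 in knockout-labelled arrays. Over the wild-type mean it was 0.35, 0.54, 0.28 and 0.56 in knockout-labelled replicates 1 to 4. Of the neutrophil markers Mmp8 (2.16; 0.00815), Cxcr2 (0.86; 0.00815) and Ngp (2.42; 0.00851) had the smallest p. The neutrophil marker that fell was Prtn3 (-0.72; 0.0101). Another 7 did not pass, among them the granule genes Elane (0.06; 0.646), Ctsg (0.22; 0.281), Mpo (0.56; 0.0624) and Camp (0.53; 0.0713). None of the markers is at 0 on this scale, and their part in the differences of the 10 genes was not tested.

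**Figure D3:**
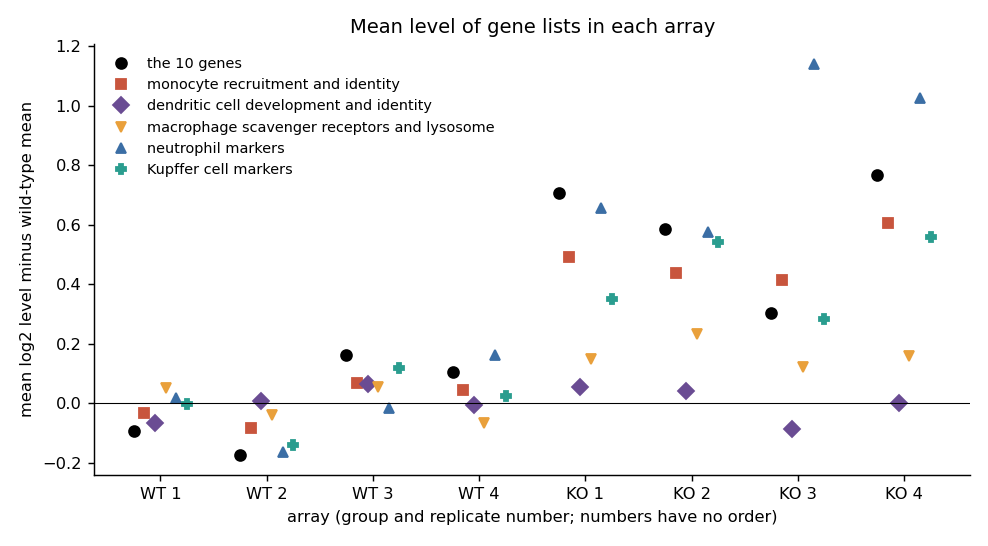
Mean log2 level of each list of genes minus its wild-type mean (vertical axis) in each of the 8 arrays (horizontal axis), with a symbol for each list. The 10 genes are at 0.30 in knockout-labelled replicate 3, where neutrophil markers are at 1.14, and at 0.77 in replicate 4, where those markers are at 1.03.

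Of 73 markers of the other cells of liver 7 were called, 4 higher and 3 lower, which is 9.59% against 3.15% of all genes. Of 16 T and NK cell markers Il2rb (0.67; limma adjusted p = 0.0348) and Ccl5 (0.52; 0.0380) rose (median 0.15; mean levels 5.92 to 6.22 in wild-type and 6.29 to 6.41 in knockout-labelled arrays). Of 12 sinusoidal endothelial markers Lyve1 rose by 1.05 (0.00660) and of 13 hepatocyte markers Tat by 0.51 (0.0247), with medians of -0.01 and 0.04. The endothelial markers Emcn (-0.45; 0.0792) and Fcgr2b (-0.23; 0.148) were lower and did not pass. Of 12 stellate cell markers Lrat (-1.01; 0.0428) and Lum (-0.94; 0.0473) fell (median -0.20), and of 8 bile duct markers Pkhd1 (-0.84; 0.0249) fell (median -0.03). The bile duct marker Sox9 was higher (0.52; 0.0583) and did not pass. None of 12 B and plasma cell markers was called by limma (2 at an unadjusted p under 0.05; median -0.02).

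Within the arrays of either kind of sex-linked signal, Plac8 and Chil3 differed by nearly the same amount, while the values of Ly6c2 and Mpeg1 were further apart in the arrays with Y-linked signal. With genotype, the kind of array and their interaction in 1 limma fit, Plac8 was higher by 1.11 (SE 0.26) where Y-linked signal was present and by 1.02 (SE 0.26) where Xist signal was. Chil3 was higher by 1.05 (SE 0.26) and 1.04 (SE 0.26), and Flt3 by 0.50 (SE 0.11) and 0.39 (SE 0.11). The genotype difference had the same direction in each kind for these 3 genes, as for all others of the 10 except Mpeg1 and Folr2. Ly6c2 was higher by 2.12 (SE 0.35) and 0.97 (SE 0.35), a change of -1.15 (SE 0.50; limma interaction adjusted p = 0.904, unadjusted 0.0460). Mpeg1 was higher by 0.77 (SE 0.17) with Y-linked signal and had a difference of -0.08 (SE 0.17) with Xist signal (adjusted p = 0.729, unadjusted 0.00604). Neither change passed over all genes, and 0 of the 10 genes did (limma), with these 2 at an unadjusted p under 0.05; 0.0271% of all genes passed this interaction. Msr1 had differences of 0.78 and 0.41, Lyz2 0.59 and 0.19, Cd68 0.46 and 0.14, Lyz1 0.20 and 0.19, and Folr2 0.20 and -0.23. With the kind of array as a block the same 5 genes were called, with adjusted p between 0.0130 for Plac8 and 0.0456 for Msr1, against 4.68% of all genes. No gene of the 10 was called by limma within 1 kind in this fit, where each difference rests on 2 arrays against 2; 0.275% of all genes were called within the arrays with Y-linked and 3.41% within those with Xist signal.

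**Figure D4:**
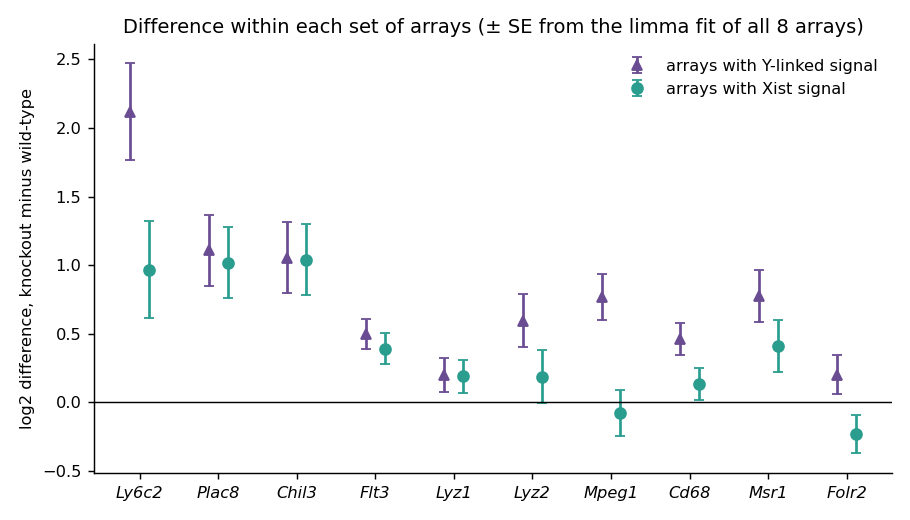
Difference of each gene (vertical axis, log2, knockout-labelled minus wild-type) in the 4 with Y-linked signal (purple triangles) and in the 4 with Xist signal (green circles), with SE bars from the fit of all 8 arrays. Plac8 and Chil3 are alike in each kind, while Mpeg1 is at 0.77 and -0.08.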

How the data were processed

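Liver RNA was hybridised to 8 arrays, 4 per genotype, grouped and numbered by the sample titles. Per the submitters' processing notes, the authors used R 3.0.1 and RMA to make the deposited log2 levels. The sources used here do not give its background settings or probe summary. The table holds 41345 rows, of which 23521 name 1 gene, 1814 several and 16010 none in the platform annotation. All 10 genes match the RefSeq table (GRCm38.p6) by symbol and gene number. Genes were tested in R 4.3.3 by lmFit and untrended eBayes of limma 3.58.1 on all 8 arrays, without covariates or filter on low values. Benjamini-Hochberg adjustment was over 22180 genes. The fit was tested on simulated data with independent genes and no split by sex-linked signal, which does not check it for these arrays. Array depth has no count, and the number of arrays limits precision. Correlations between arrays were 0.976 to 0.994, and the closest pair differed by a root mean square of 0.22, so none repeats another. The 10 genes and the lists were chosen with earlier results of these data known. Named genes are the 10 genes, set relatives and Ccr2 whatever their values. Up to 4 of each list are named by smallest p (3 for markers of other cells). Some others of a list are named to show genes that did not pass or went the other way. Il10, Xist and 3 Y-linked genes are named as checks, and Flt3l is not reported alone. Lists are given as counts and medians, without a set test. Letters in upstream windows were searched on either strand, and windows were aligned with Biopython 1.88. Figures were drawn with matplotlib 3.10.9. Replicate numbers are shared by the groups but tied to no litter or batch in the labels, so the comparison is unpaired. Deviations of same-numbered arrays correlated above 0.1 in 2 of 4 pairs. Wild-type replicate 1 correlated with knockout-labelled replicates 1 and 2 (0.27 and 0.29), and wild-type replicate 4 with 3 and 4 (0.31 and 0.29). These arrays share a kind of sex-linked signal, so that count cannot show whether the numbers pair the arrays.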

Additional observations from a re-analysis of the deposited data

Results flagged for a closer look

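In 3 of 20 sets of 4 arrays (10 genes in 2 groups) the most extreme array stood apart from the others by more than Dixon's 95% critical value, taking the gap to its neighbour divided by the range of the group; chance gives about 1 in 20. For Lyz2, wild-type replicate 3 was above its group (ratio 0.838). For Msr1, wild-type replicate 2 was below its group (ratio 0.921). For Folr2, knockout-labelled replicate 3 was below its group (ratio 0.850). Without these arrays Lyz2 had a difference of 0.50 (limma adjusted p = 0.128), Msr1 of 0.48 (0.0973) and Folr2 of 0.08 (0.708).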

How the results depend on the processing

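The number of the 10 genes called was 5, all higher, and between 2 and 5 without 1 array. It was 3 when the limma p was adjusted over every row of the table, Ly6c2 (0.0776) and Msr1 (0.0916) being lost. It was 0 in the arrays with Xist signal alone and 2 in those with Y-linked signal alone, each a fit of only 4 arrays. Over the other alternatives it was between 4 and 6, again all higher. With the replicate number as a block (replicate block) 4 were called, Msr1 being lost (adjusted p = 0.0907). The difference of Folr2 turned positive with cyclic loess (0.0261), quantile normalization (0.0341) and array weights (0.0456) and with Y-linked arrays alone (0.202), and it was between -0.0748 and 0.0812 without 1 array. The difference of Mpeg1 turned negative with Xist arrays alone (-0.0789). The other 8 genes kept their sign in all alternatives run. Over all genes 699 were called, 234 with p adjusted over every row, 317 and 171 in the arrays with Xist or Y-linked signal alone, 1685 at an adjusted p below 0.1, 377 with a 1.5-fold minimum, and between 207 and 1040 without 1 array. The causes of these shifts were not tested. The values carry no detection calls, which limits Flt3 and Ly6c2, near or below the array medians.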
